A study of Homo sapiens with 3 samples.

Results

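Expression of 9 genes of the major histocompatibility complex (MHC) class I antigen presentation pathway was followed in PANC-1, a human cell line derived from a carcinoma of the pancreatic duct. The 9 genes were HLA-B, HLA-C, HLA-E, B2M, TAP1, TAP2, TAPBP, NLRC5 and ERAP1. They were chosen by name for their role in the pathway, with earlier results of these data known. Each has a row among the 51136 genes of the count table. RNA-seq by Ion Proton sequencing gave 3 libraries, 1 from cells labelled with no agent (control), 1 from cells given 200 μM Ginsenoside Rg3 (Rg3, a saponin of ginseng) for 24 h, and 1 from cells given 50 μM tamoxifen (TAM, an estrogen receptor modulator that the study used as an inhibitor of protein kinase C) for 24 h. All 3 were grown in the same medium, no vehicle is named for the control, and PANC-1 is a single line, so that other pancreatic tumour cells are not covered. The study sequenced Rg3- and TAM-treated cells to see how each agent alters gene expression in a pancreatic cancer line.

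MHC class I molecules show peptides from inside the cell to CD8+ T cells. A heavy chain, encoded by the HLA class I genes, pairs with the light chain encoded by B2M in the endoplasmic reticulum. The transporter TAP1-TAP2 brings peptides in from the cytosol, TAPBP (tapasin) tethers the empty molecule to the transporter, ERAP1 trims the peptides, and NLRC5 is the transactivator that switches on the class I promoters together with factors bound at the promoter. Interferons raise the whole set in most cell types, and tumours that lower it are less visible to T cells.

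In the Rg3 library B2M stood 1.84-fold above the control, and it was the only one of the 9 genes called higher, whereas none was called lower. In the TAM library ERAP1 stood at 0.616 of the control level and was the only gene called lower, and none was called higher. Neither call held once the trend of the fold changes on GC content and transcript length was subtracted (log2 values of 0.17 for B2M and -0.022 for ERAP1), nor in edgeR's exact test when the variation between cultures was assumed to be 0.2 or 0.4. A gene was called when its fold change was over 1.5 or under 0.67 and the adjusted p of the two-sided exact binomial test of its reads was under 0.05. Among all genes compared for Rg3, 20.2% were called higher and 16.2% lower, and among those compared for TAM 14.0% were called higher and 18.4% lower. One called gene of 9 in a direction is therefore no more than the share seen across the table. As each condition is 1 library, differences could not be checked in replicates, the test compares libraries and not conditions, and the 95% intervals (exact, Clopper-Pearson or Poisson) cover counting error only.

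Reads counted on genes numbered between 11300766 and 12861693 per library. The floor of 3 counts used for fold changes stood at 0.208 to 0.302 CPM (counts per 1000000 reads after TMM scaling). All 7 epithelial and ductal markers had reads in each library, with summed levels of 2417 CPM in the control, 1090 CPM with Rg3 and 2844 CPM with TAM. KRT8 and KRT18 made up most of these sums. Of the 7 markers 6 were called lower with Rg3, against 16.2% of all genes. With TAM 1 was called higher and 3 lower, against 14.0% and 18.4% of all genes. In the TAM library CDH1 went from 76 to 5 reads, KRT19 from 665 to 181 and EPCAM from 26 to 8. In a bulk library fewer expressing cells and less RNA per cell cannot be told apart. The 3 acinar markers were at 0 throughout, the 3 endothelial markers held 2 to 3 reads together, and of 8 leukocyte markers CD14 had 97, 46 and 37 reads, PTPRC (CD45) had 1 read in the TAM library and the others had none. Of 4 fibroblast markers, COL1A1 carried nearly all of the summed 162, 70.0 and 74.2 CPM. The part of these marker differences in the results on class I genes was not tested. Fold changes across the table also moved with base composition. Spearman's rho between the GC content of the transcript and the log2 fold change was -0.82 for Rg3 against control (11583 genes with 50 counts or more) and 0.52 for TAM (11022 genes). The corresponding values for transcript length were 0.21 and -0.48. Genes share their library and are not independent, so these correlations are descriptions. For the 9 genes, fold changes against the control are for this reason given together with the value that remained after the smooth trend was subtracted.

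The 9 genes differed in base composition and in level. B2M (39.4% GC) and ERAP1 (39.7%) were poor in GC, TAP2 (49.1%) lay between, and HLA-E (54.8%), TAP1 (57.5%), TAPBP (57.6%), NLRC5 (58.0%), HLA-B (59.0%) and HLA-C (60.0%) were rich in GC. On the scale of CPM per kilobase of transcript, which allows levels to be compared between genes, the control library ran from B2M at 244 (95% interval, 237 to 251) to NLRC5 at 0.217 (0.127 to 0.348). HLA-C at 96.2 and HLA-E at 90.0 followed B2M, and their counting intervals overlapped. HLA-B at 36.3 and TAPBP at 35.0 overlapped as well, followed by TAP1 at 27.3, TAP2 at 15.8 and ERAP1 at 2.35, which were apart from each other. In the Rg3 library B2M reached 449 per kilobase, HLA-E (68.0) and HLA-C (64.7) overlapped, and the order from HLA-B (32.7) through TAPBP (26.0), TAP1 (23.2) and TAP2 (12.2) to ERAP1 (2.46) and NLRC5 (0.345) was that of the control, although TAPBP and TAP1 now overlapped. In the TAM library HLA-C (133) stood clear of HLA-E (98.5), while HLA-B (49.3) and TAPBP (48.1) again overlapped.

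**Figure D1:**
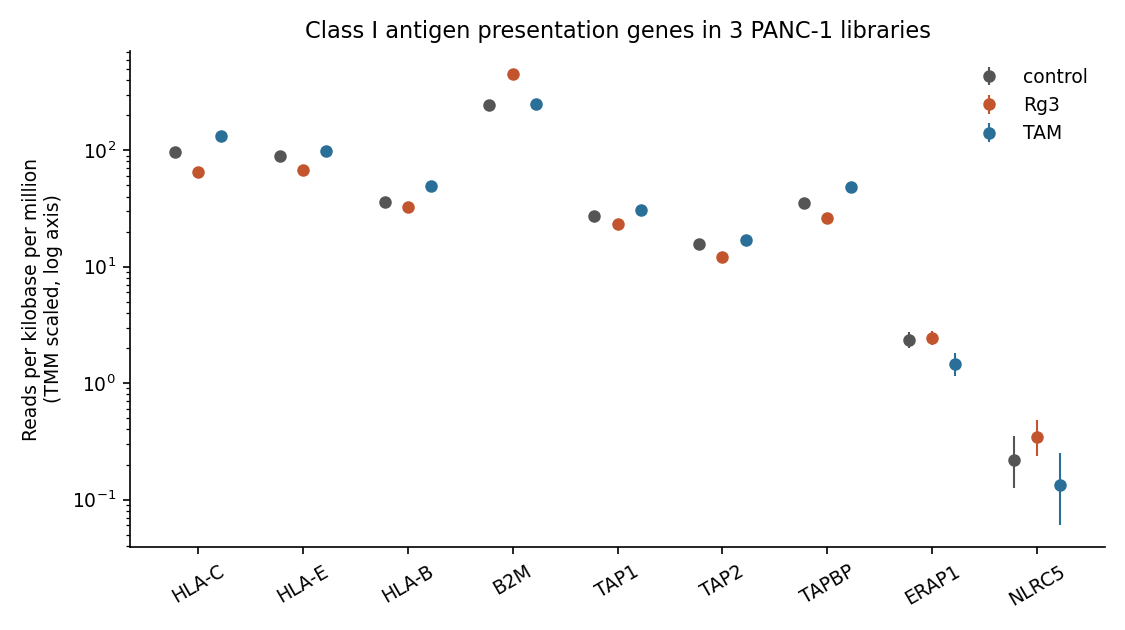
Level of each class I antigen presentation gene in the control, Rg3 and TAM libraries, in CPM per kilobase of transcript on a log axis, with exact Poisson 95% intervals that cover counting error only. B2M is the highest of the 9 genes in each library, at 244, 449 and 250, and NLRC5 the lowest, at 0.217, 0.345 and 0.133.

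Promoters of class I genes are known to hold sites for interferon-regulated factors and NF-Y. Those of B2M, HLA-C, TAP1 and ERAP1 are shown because B2M and ERAP1 are the genes called in the libraries, HLA-C lay closest to the lower fold limit with Rg3, and TAP1 holds the same pair of overlapping motif matches as B2M. RefSeq promoters (GRCh38.p14, 250 bases before to 50 bases after the RefSeq start) were found for 7 of the 9 genes, not for HLA-E and NLRC5. The RefSeq start can differ from that of the GENCODE transcript whose coordinates are given for each gene below. The TAP1 and TAPBP windows lie within the span of those transcripts. Each is written 5′ to 3′ on the strand of the gene, B2M from chr15:44711267-44711566 (plus strand), HLA-C from chr6:31272043-31272342, TAP1 from chr6:32853655-32853954 and ERAP1 from chr5:96807896-96808195 (all 3 minus strand). Capitals mark TTTC repeated after a gap of 2 bases, the core of an interferon-stimulated response element (ISRE), and CCAAT, the box bound by NF-Y, each searched on both strands.
B2M: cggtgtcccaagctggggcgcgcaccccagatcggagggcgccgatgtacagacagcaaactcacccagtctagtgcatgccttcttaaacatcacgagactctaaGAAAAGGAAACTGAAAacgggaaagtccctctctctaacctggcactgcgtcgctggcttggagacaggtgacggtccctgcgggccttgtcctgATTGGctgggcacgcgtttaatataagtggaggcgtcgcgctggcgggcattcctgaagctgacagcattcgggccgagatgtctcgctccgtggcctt
HLA-C: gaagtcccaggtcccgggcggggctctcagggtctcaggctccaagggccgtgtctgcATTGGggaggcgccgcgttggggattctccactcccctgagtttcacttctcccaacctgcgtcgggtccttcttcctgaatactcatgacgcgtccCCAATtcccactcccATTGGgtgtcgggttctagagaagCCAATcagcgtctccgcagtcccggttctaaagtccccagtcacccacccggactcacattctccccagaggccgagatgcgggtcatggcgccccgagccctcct
TAP1: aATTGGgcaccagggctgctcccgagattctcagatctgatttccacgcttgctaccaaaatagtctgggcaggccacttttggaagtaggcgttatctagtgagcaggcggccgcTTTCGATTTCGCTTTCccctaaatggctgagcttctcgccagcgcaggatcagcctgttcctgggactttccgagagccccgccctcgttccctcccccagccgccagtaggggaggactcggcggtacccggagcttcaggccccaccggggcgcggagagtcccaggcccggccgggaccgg
ERAP1: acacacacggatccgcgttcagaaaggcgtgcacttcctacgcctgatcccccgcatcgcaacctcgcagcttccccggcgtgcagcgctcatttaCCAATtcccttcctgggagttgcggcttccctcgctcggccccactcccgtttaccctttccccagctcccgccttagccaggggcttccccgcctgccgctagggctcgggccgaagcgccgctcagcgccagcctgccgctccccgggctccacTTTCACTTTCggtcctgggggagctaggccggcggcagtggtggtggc

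The ISRE core in the exact form searched was present in 5 of the 7 promoters (B2M, TAP1, TAP2, TAPBP and ERAP1), against 3.57% of 35116 RefSeq promoters of the same length. HLA-B and HLA-C hold the near match tttcacttct, which the search did not count. A promoter without the exact form may therefore still hold an ISRE. In B2M, TAP1 and TAPBP a pair of matches overlapped. CCAAT was present in 5 of 7 (HLA-B, HLA-C, B2M, TAP1 and ERAP1), against 34.6% of all promoters. TGACG, part of the site for CREB and ATF1, was in HLA-B, HLA-C, B2M and TAP2, and in 24.6% of all promoters. No promoter of the 7 held TTC and GAA with 3 bases between them, the form of site bound by STAT dimers, which 7.66% of all promoters held. A match is a description of letters. The 5 genes with the exact form of the ISRE core had log2 fold changes with Rg3 from -0.43 (TAPBP) to 0.88 (B2M), and with TAM from -0.70 (ERAP1) to 0.46 (TAPBP).

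The heavy chains come first in the account of the genes. HLA-B (GRCh38, chr6:31353872-31357187, minus strand), a classical heavy chain that presents peptides to CD8+ T cells, had 643 reads in the control, 730 with Rg3 and 757 with TAM, or 56.1, 50.5 and 76.2 CPM. TAM was the highest of the 3 libraries and Rg3 the lowest, and the interval of the Rg3 difference reached 0. The log2 fold change was -0.15 with Rg3 (95% interval, -0.31 to 0.00) and 0.44 with TAM (0.29 to 0.60), and neither passed the fold limits. After subtraction of the GC and length trend, the values were 0.35 with Rg3, on the other side of 0, and -0.027 with TAM. An antisense gene, AL671883.2, overlaps 24.0% of the HLA-B transcript, and since the use of strand in the counting is not given, reads of the 2 genes cannot be told apart.

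HLA-C (chr6:31268749-31272086, minus strand), a classical heavy chain that is also the main ligand of the inhibitory KIR receptors of natural killer (NK) cells, had 1714, 1454 and 2060 reads in the control, Rg3 and TAM libraries, or 149, 101 and 207 CPM. Rg3 lay below and TAM above the control, with counting intervals that did not touch. With Rg3 the fold change was 0.673 (0.627 to 0.722), just inside the limit of 0.67, and the log2 fold change was -0.57. With TAM the fold change was 1.39 (1.30 to 1.48), or 0.47 on the log2 scale. With the trend subtracted, both log2 values lay near 0, at -0.029 (-0.13 to 0.072) with Rg3 and -0.012 (-0.11 to 0.082) with TAM.

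HLA-E (chr6:30489467-30494205, plus strand), which presents leader peptides of other heavy chains to the NK receptor CD94-NKG2A, had 2684, 2557 and 2543 reads, or 234, 177 and 256 CPM. It was the heavy chain with the smallest spread over the control and TAM libraries. HLA-E had a log2 fold change of -0.40 (-0.48 to -0.33) with Rg3 and 0.13 (0.051 to 0.21) with TAM, and -0.073 and -0.13 with the trend subtracted. By number of reads HLA-E exceeded the sum of HLA-B and HLA-C by a ratio of 1.14 (1.08 to 1.20) in the control and 1.17 (1.11 to 1.24) with Rg3, and fell short of it with TAM at 0.903 (0.855 to 0.953). The HLA-E transcript (2601 bases) is longer than those of HLA-B (1547) and HLA-C (1554), and these ratios are not corrected for length. Per kilobase, HLA-E (90.0) did not exceed HLA-C alone (96.2) in the control.

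B2M (chr15:44711487-44718877, plus strand), the light chain without which heavy chains do not reach the surface, had 4763 reads in the control, 11058 with Rg3 and 4240 with TAM, or 415, 765 and 427 CPM. The Rg3 library stood apart, and the control and TAM libraries were close to each other. For B2M the log2 fold change was 0.88 (0.83 to 0.93) with Rg3 and 0.040 (-0.020 to 0.10) with TAM. The trend at the GC content and length of B2M was 0.71 for Rg3, and 0.17 (0.12 to 0.22) remained after its subtraction, inside the fold limits. For TAM, 0.16 (0.097 to 0.22) remained. No stretch of 50 bases of the B2M transcript recurs in another gene of the annotation. In the study B2M also served as the internal standard of real-time PCR, which was not run on these libraries.

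**Figure D2:**
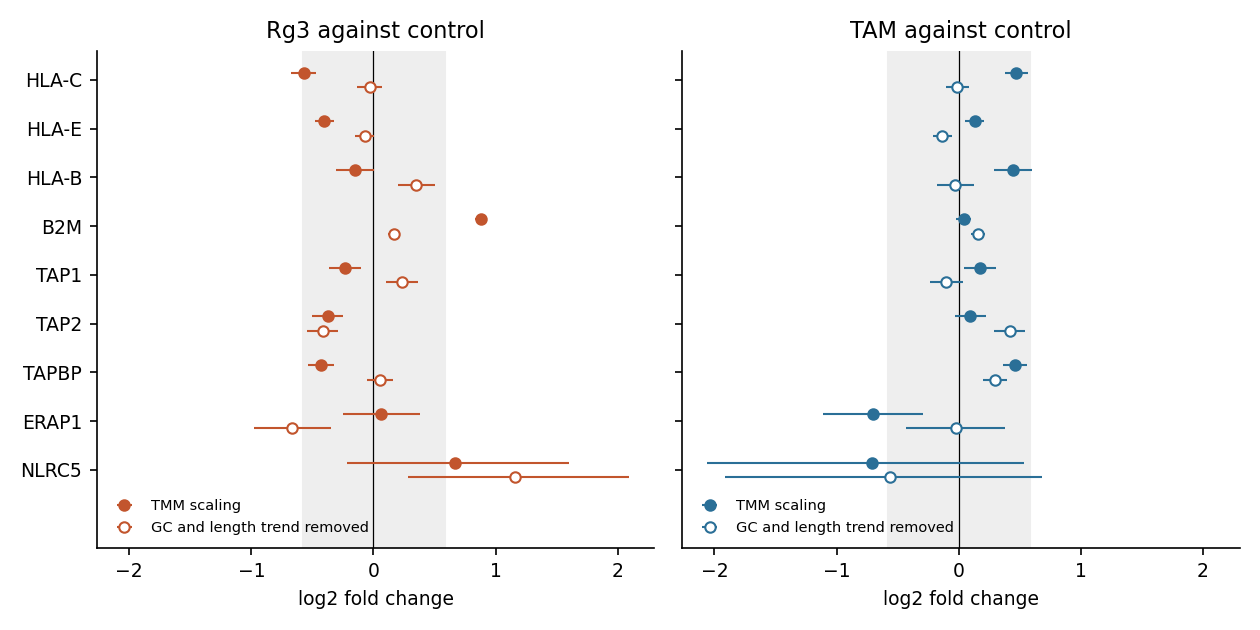
Log2 fold change of the 9 genes for Rg3 against control and for TAM against control, with 95% counting intervals. Filled points are after TMM scaling, open points after the GC and length trend was subtracted, and the grey band lies between the fold limits of 0.67 and 1.5. B2M with Rg3 goes from 0.88 to 0.17 and ERAP1 with TAM from -0.70 to -0.022 once the trend is subtracted.

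TAP1 (chr6:32845209-32853978, minus strand), one chain of the peptide transporter, had 926, 992 and 905 reads, or 80.8, 68.6 and 91.1 CPM. TAP1 had a log2 fold change of -0.23 (-0.37 to -0.10) with Rg3 and 0.17 (0.040 to 0.31) with TAM, and each turned over to the other side of 0 with the trend subtracted, at 0.24 and -0.10. PSMB8-AS1, on the opposite strand, overlaps 15.4% of the TAP1 transcript and had 1, 2 and 3 reads of its own.

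TAP2 (chr6:32825415-32838780, minus strand), the other chain, had 1027, 1000 and 950 reads, or 89.6, 69.2 and 95.7 CPM. Its log2 fold change was -0.37 (-0.50 to -0.24) with Rg3 and 0.095 (-0.034 to 0.22) with TAM. The trend at TAP2 with Rg3 was the smallest in size among the 9 genes, at 0.044, and -0.42 (-0.54 to -0.29) remained. For TAM the remaining value was 0.42 (0.29 to 0.55), so that with the trend subtracted the Rg3 and TAM libraries lay on opposite sides of the control and inside the fold limits. AL669918.1, on the same strand, overlaps 36.3% of the transcript, so TAP2 carries the largest overlap of the 9 genes. The 2 chains, which work as a pair, had similar read numbers. The ratio of TAP1 to TAP2 reads was 0.902 (0.824 to 0.986) in the control, 0.992 (0.908 to 1.08) with Rg3 and 0.953 (0.869 to 1.04) with TAM, with intervals that overlapped. The transcripts differ in length (2959 and 5684 bases), and per kilobase TAP1 stood above TAP2 in each library (27.3 against 15.8 in the control). They also differ in GC content. With the trend subtracted, TAP1 and TAP2 lay on opposite sides of 0, at 0.24 and -0.42 with Rg3 and at -0.10 and 0.42 with TAM.

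TAPBP (chr6:33299694-33314387, minus strand), the tapasin bridge between the transporter and the empty class I molecule, had 1509, 1412 and 1796 reads, or 132, 97.7 and 181 CPM. Rg3 was below and TAM above the control. For TAPBP the log2 fold change was -0.43 (-0.54 to -0.32) with Rg3 and 0.46 (0.36 to 0.56) with TAM, and 0.054 and 0.30 with the trend subtracted. Against the sum of TAP1 and TAP2 reads, TAPBP had a ratio of 0.773 (0.722 to 0.827) in the control, 0.709 (0.662 to 0.759) with Rg3 and 0.968 (0.907 to 1.03) with TAM. The TAM ratio lay above the other two, whose intervals overlapped.

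ERAP1 (chr5:96760810-96808100, minus strand), the aminopeptidase that trims peptides to the length that class I molecules hold, had 148, 195 and 79 reads, or 12.9, 13.5 and 7.96 CPM. The control and Rg3 libraries overlapped and the TAM library was lower. The log2 fold change was 0.064 (-0.25 to 0.38) with Rg3 and -0.70 (-1.11 to -0.29) with TAM. The trend at ERAP1 was 0.73 for Rg3 and -0.68 for TAM, and with it subtracted the Rg3 value was -0.67 (-0.98 to -0.35), called lower, and the TAM value -0.022 (-0.44 to 0.38), not called. CAST, on the opposite strand, overlaps 1.80% of the ERAP1 transcript and had 1757, 2775 and 904 reads, highest with Rg3 and lowest with TAM as ERAP1 was, and its part in the ERAP1 counts was not tested. ERAP2, the companion trimming enzyme, had 55, 99 and 24 reads, and the ratio of ERAP1 to ERAP2 was 2.69 (1.96 to 3.74), 1.97 (1.54 to 2.53) and 3.29 (2.06 to 5.44).

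NLRC5 (chr16:56989498-57083524, plus strand), the transactivator of class I genes, had 17, 34 and 9 reads, or 1.48, 2.35 and 0.906 CPM, the lowest of the 9 genes in each library. The log2 fold change was 0.67 (-0.21 to 1.60) with Rg3 and -0.71 (-2.06 to 0.54) with TAM. Both point values were past the fold limits, and both intervals included 0, so a difference from the control was not detectable at this depth. With the trend subtracted, the Rg3 value was 1.16 (0.28 to 2.09) and passed the call rule. The trend was fitted on genes with at least 50 counts in 1 of the libraries, so NLRC5 itself was not part of that fit.

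Seen as a group, the members had a median log2 fold change of -0.23 with Rg3, beside 0.035 over the 16487 genes compared, and of 0.13 with TAM, beside -0.023 over 16079 genes. With Rg3 the counting interval lay wholly below 0 for 5 members (HLA-C, HLA-E, TAP1, TAP2 and TAPBP) and wholly above 0 for B2M. Of all genes compared, 31.4% lay wholly below 0 and 32.5% wholly above. With TAM the interval lay wholly above 0 for 5 members (HLA-B, HLA-C, HLA-E, TAP1 and TAPBP) and wholly below for ERAP1, against 29.5% and 28.4% of all genes. Both comparisons use the same control library. With the trend subtracted, 4 members lay above (HLA-B, B2M, TAP1 and NLRC5) and 2 below (TAP2 and ERAP1) with Rg3, and 3 above (B2M, TAP2 and TAPBP) and 1 below (HLA-E) with TAM. Of all genes with a trend value, 20.0% then lay above and 22.9% below with Rg3 (14274 genes), and 27.9% above and 23.2% below with TAM (14011 genes). By the call rule, NLRC5 was then higher and ERAP1 lower with Rg3, where 4.67% and 6.84% of all genes were, and no member was called with TAM, where 10.0% and 10.9% of all genes were.

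**Figure D3:**
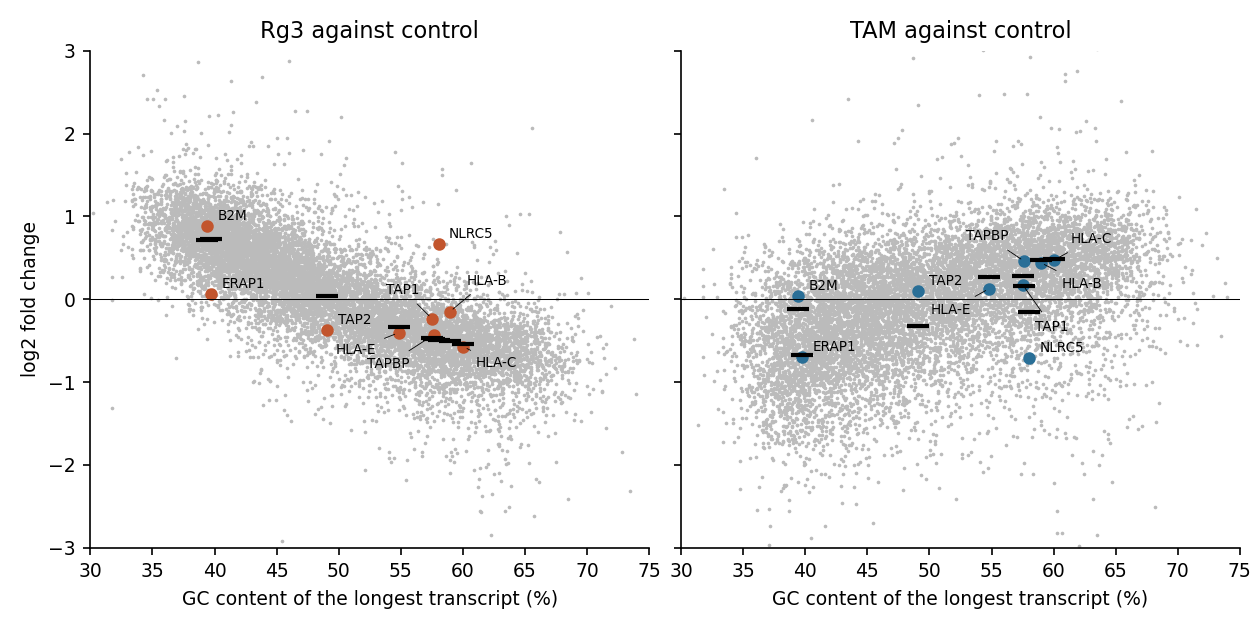
Log2 fold change against the GC content of the transcript in percent, for Rg3 and for TAM against control. Grey points are genes with at least 50 counts (the few outside the axes are not drawn), coloured points the 9 class I genes and black dashes the trend at each of them. B2M and ERAP1, at 39.4% and 39.7% GC, sit at the GC-poor end, where the trend was 0.71 and 0.73 for Rg3, and for HLA-C at 60.0% it was -0.54.

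The TAM and Rg3 libraries were also set against each other, although the doses of 50 μM and 200 μM differ and the agents are unrelated. HLA-B (log2 fold change of TAM against Rg3, 0.59), HLA-C (1.04) and TAPBP (0.89) were called higher with TAM, and B2M (-0.84), ERAP1 (-0.76) and NLRC5 (-1.38) were called lower. Across 16493 genes, 27.3% were called higher and 30.7% lower. HLA-E (0.53), TAP2 (0.47) and TAP1 (0.41) were not called, although their counting intervals lay above 0, as those of 35.7% of all genes did (37.4% lay below). The groups of higher and lower members parted by GC content, with the exception of NLRC5. With the trend subtracted, none of the 3 higher calls was left, and of the 3 lower calls NLRC5 (-1.73) was. HLA-C then stood at 0.014 (-0.084 to 0.11), TAPBP at 0.23 and HLA-B at -0.38, on the other side of 0. B2M stood at -0.0036 (-0.055 to 0.048). ERAP1 turned from lower to higher (0.65, 0.25 to 1.03) and TAP2 (0.84) was called higher, where 15.8% of all genes were called higher and 14.4% lower. HLA-E (-0.063) and TAP1 (-0.34) lay on the other side of 0 and were not called.

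Ratios of reads within a library do not depend on scaling between libraries. The ratio of B2M reads to the sum of HLA-B, HLA-C and HLA-E was 0.945 (0.908 to 0.983) in the control, 2.33 (2.25 to 2.41) with Rg3 and 0.791 (0.760 to 0.824) with TAM. Light chain reads thus outnumbered the reads of these 3 heavy chain genes with Rg3 alone. When all class I HLA rows were summed, pseudogenes included, B2M reads outnumbered them in no library. Reads are also not divided by transcript length. Per kilobase, B2M stood above each of the 3 genes in every library, with 244 in the control against 96.2 for HLA-C. The 3 heavy chain genes are rich in GC and B2M is not, and the ratio of B2M to their sum carries the trend on base composition. The ratio of HLA-C to HLA-B, which are similar in GC content and length, was 2.67 (2.43 to 2.92) in the control and 2.72 (2.50 to 2.96) with TAM, and lower with Rg3 at 1.99 (1.82 to 2.18), outside both intervals.

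**Figure D4:**
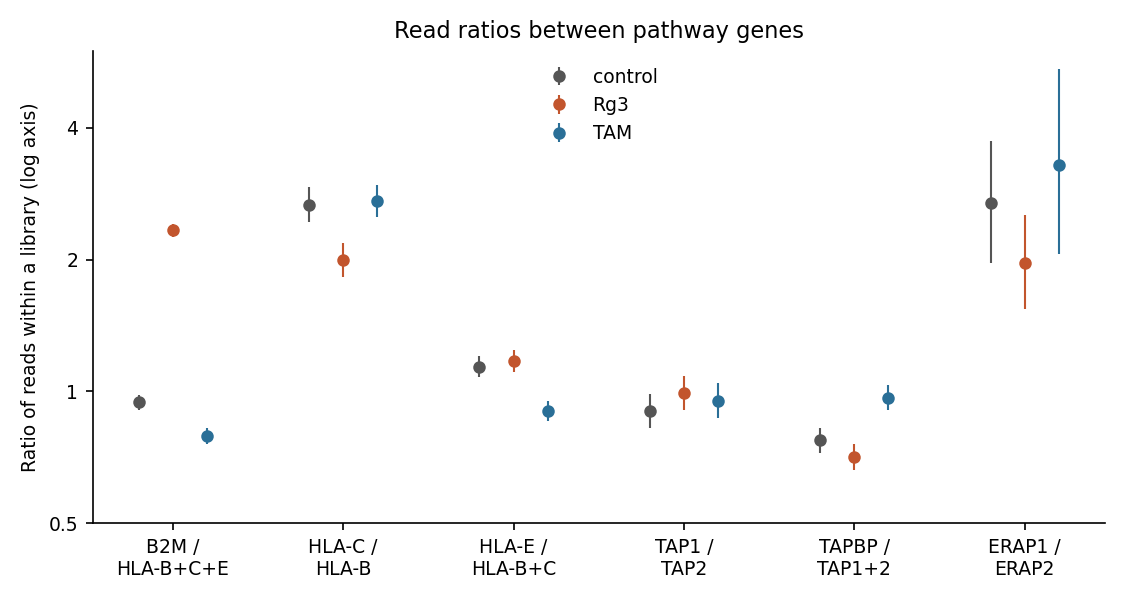
Ratios of read counts within each library, with exact 95% intervals for counting error. The ratio of B2M to HLA-B, HLA-C and HLA-E is 0.945 in the control, 2.33 with Rg3 and 0.791 with TAM, and the ratio of HLA-C to HLA-B is lower with Rg3 (1.99) than in the control (2.67) or with TAM (2.72).

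HLA genes resemble each other, and a read may match more than 1 of them. Of the stretches of 50 bases of the reference transcript, 2.54% in HLA-B, 6.71% in HLA-C and 4.66% in HLA-E recur in another class I HLA gene or pseudogene, and at 100 bases the shares were 0, 0.275% and 0.600%. How reads with several matches were counted is not given, and the HLA alleles of PANC-1 can differ from the reference, so single HLA rows are uncertain by an amount these shares do not bound. The rows of HLA-B, HLA-C and HLA-E were also summed, which removes the split of reads among these 3 genes and gave 5041 reads in the control, 4741 with Rg3 and 5360 with TAM. The log2 fold change of the sum was -0.42 (-0.48 to -0.36) with Rg3 and 0.30 (0.24 to 0.35) with TAM, neither past the fold limits, and 0.72 (0.66 to 0.78) for TAM against Rg3, called higher.

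Other genes that supply, trim and edit peptides were described from a list of 18, of which 17 were in the table and compared. With Rg3, 3 were called higher and 3 lower, against 20.2% and 16.2% of all genes. The median log2 fold change was -0.26, beside 0.035 over all genes. The aminopeptidase LNPEP (1.40), the peptidase TPP2 (0.82) and the metallopeptidase NRD1 (0.91) were higher. With the trend subtracted, 0.66 remained for LNPEP and 0.079 for TPP2, whose interval (-0.15 to 0.31) then included 0, and NRD1 had no GC value. The immunoproteasome subunits PSMB8 (-0.71, from 189 to 146 reads) and PSMB10 (-0.96, from 390 to 252 reads) and the constitutive subunit PSMB5 (-0.60) were lower, and they kept that side with the trend subtracted (-0.38, -0.45 and -0.48). With TAM, 4 were called higher and 3 lower, against 14.0% and 18.4% of all genes. The median was -0.053, beside -0.023 over all genes. The 3 constitutive catalytic subunits PSMB5 (1.01), PSMB6 (0.80) and PSMB7 (0.91), which the immunoproteasome replaces by PSMB8, PSMB9 and PSMB10, were called higher, as was the signal peptide peptidase HM13 (0.78), whose product acts on the leader peptides that HLA-E presents. All 4 stayed above 0 with the trend subtracted, at 0.71, 0.44, 0.69 and 0.91. ERAP2 (-0.99), LNPEP (-1.04) and TPP2 (-1.21) were lower, with -0.32, -0.066 and -0.53 remaining. The intervals of ERAP2 and LNPEP then included 0.

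Among the chaperones of peptide loading, 0 of 8 were called higher and 1 lower with Rg3, against 20.2% and 16.2% of all genes. The lower one was GANAB (-0.67, with -0.40 remaining after the trend), a glucosidase that trims the glycans of new heavy chains. The partners of the loading complex were inside the fold limits, with CALR (calreticulin) at -0.39, CANX (calnexin) at 0.35 and PDIA3 (ERp57) at 0.29. With TAM, 1 of 9 was called higher and 2 lower, against 14.0% and 18.4% of all genes. BCAP31 (0.70), an export receptor for class I molecules, was higher, and HSP90B1 (-1.06) and UGGT1 (-1.02), the glucosyltransferase that returns unfolded glycoproteins to calreticulin, were lower. The values that remained after the trend were 0.25 for BCAP31, -0.83 for HSP90B1 and -0.25 for UGGT1. CALR was at 0.51, CANX at -0.39 and PDIA3 at -0.38, and none of the 3 was called.

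Of 30 listed regulators of class I genes, 28 were compared. With Rg3, 7 were called higher and 2 lower, against 20.2% and 16.2% of all genes. The median was 0.21, beside 0.035 over all genes. The interferon receptor chains IFNGR1 (1.31, from 132 to 413 reads) and IFNAR1 (0.90, from 255 to 600 reads) were higher, and IRF9 (-0.71, from 144 to 111 reads), the DNA-binding part of an interferon-activated complex, was lower. After subtraction of the trend, 0.61 remained for IFNGR1, 0.35 for IFNAR1 and -0.35 for IRF9. The counting interval of IRF9 then ended close to no change. IRF1, a direct activator of class I promoters, had 198, 245 and 224 reads, with log2 fold changes of -0.027 with Rg3 and 0.39 with TAM, neither of them called. Of the factors that work with NLRC5 at the promoter, RFXANK (-0.62) was lower, CREB1 (1.00) and ATF1 (0.72) were higher, and RFXAP, at 10 reads in the control and 30 with Rg3, was higher as well. For RFXANK, CREB1 and ATF1 the remaining values were -0.066, 0.082 and -0.29. The counting intervals of RFXANK and CREB1 then included no change, and that of ATF1 ended close to it. SUZ12 (0.81), a subunit of the polycomb complex that represses class I genes in some tumours, had -0.034 remaining. Its counting interval then included no change.

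With TAM, 1 regulator was called higher and 7 lower, against 14.0% and 18.4% of all genes. The median was -0.23, beside -0.023 over all genes. The ubiquitin ligase MARCH9 (0.74, with 0.44 remaining), which removes class I molecules from the surface, was higher. The kinase JAK1 (-1.14, from 1904 to 747 reads), STAT3 (-0.98), the receptor chains IFNAR1 (-0.89) and IFNAR2 (-0.69), NFYB (-0.66, a subunit of the factor that binds CCAAT), CREB1 (-0.66) and SUZ12 (-1.06) were lower. JAK1 and STAT3 kept -0.77 and -0.78 with the trend subtracted, IFNAR2 kept -0.44 and SUZ12 -0.45, and the intervals of IFNAR1 (-0.25), NFYB (-0.15) and CREB1 (0.23) then included 0.

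The remaining heavy chains and class I-like molecules were a list of 13, of which 12 were compared. With Rg3, 2 were called higher and 3 lower, against 20.2% and 16.2% of all genes. The median was -0.034, beside 0.035 over all genes. The stress ligands of the NK receptor NKG2D, MICA (1.08, from 341 to 911 reads) and MICB (0.59, from 1659 to 3152 reads), were higher, and stood at 1.42 and 0.62 with the trend subtracted. MR1 (-0.73), which presents vitamin metabolites, PROCR (-0.60), the protein C receptor, and FCGRT (-0.77), the heavy chain of the neonatal Fc receptor that also pairs with B2M, were lower. Without the trend they stood at -1.07, -0.44 and -0.20, and the interval of FCGRT then included 0. With TAM, 4 were called higher and 1 lower, against 14.0% and 18.4% of all genes. The median was 0.43, beside -0.023 over all genes. Among the called genes HLA-F (1.07, from 49 to 89 reads), HLA-G (0.60, from 51 to 67 reads) and PROCR (0.62) were higher, and ULBP1 (-1.99, from 23 to 5 reads) was lower. Without the trend these stood at 0.62, 0.16, 0.31 and -1.73, and the interval of HLA-G then included 0. MICA (0.41) and MICB (0.22) were not called with TAM.

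**Figure D5:**
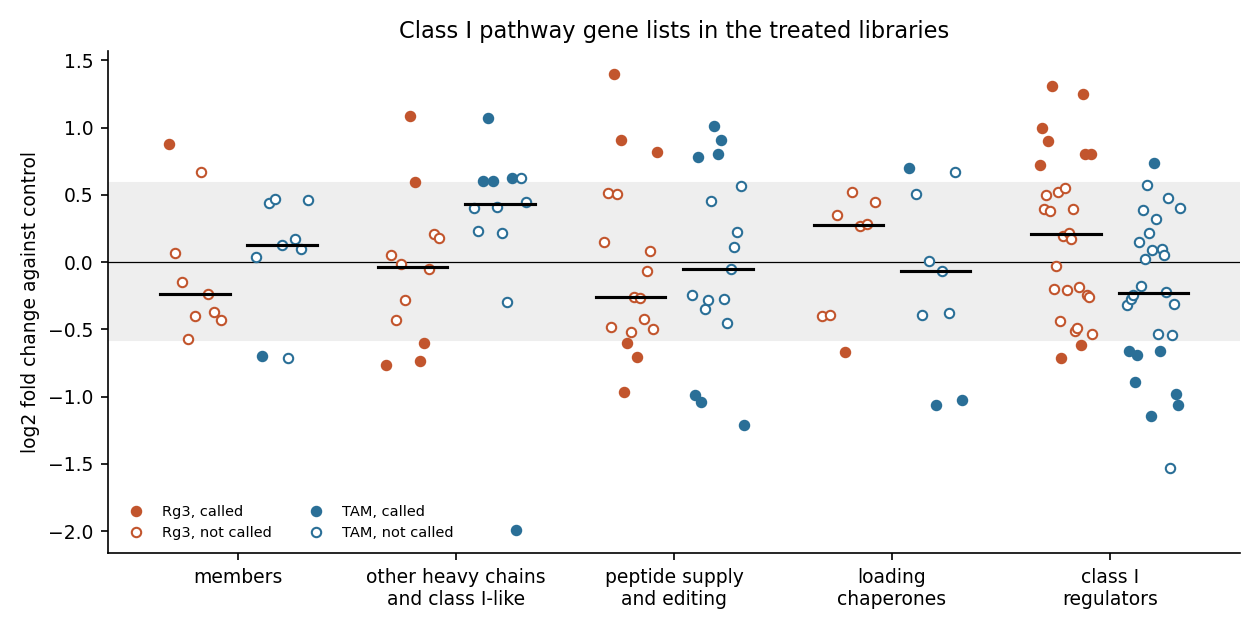
Log2 fold change of each compared gene of the class I lists, for Rg3 and for TAM against control. Filled points are called genes and bars mark the median of a list. The 9 members have medians of -0.23 with Rg3 and 0.13 with TAM, and the regulators of 0.21 and -0.23. Over all genes compared, which are not drawn, the medians were 0.035 and -0.023.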

How the data were processed

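Total RNA of PANC-1 cells was sequenced in 3 libraries, 1 per condition, grouped by the agent in the sample labels. The authors checked the reads with FAST-QC, aligned them with TopHat and used MAQ to assemble mapped reads, and they deposited raw counts of reads per gene symbol for 51136 genes. The build is GRCh38 per the submitters' processing notes. The counting tool, the annotation, the use of strand and the treatment of reads with several matches are not given in the sources used here. Each value column was matched to a library.

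TMM factors (1.01 for control, 1.12 for Rg3 and 0.877 for TAM) were computed from the deposited counts with edgeR 4.0.16 in R 4.3.3. Genes with at least 10 counts in 1 of the 2 libraries compared entered the two-sided exact binomial test (scipy 1.17.1, Python 3.11.15), with Benjamini-Hochberg adjustment over all of them. The Limma criteria of the study's methods need replicates. Its limits (fold over 1.5 or under 0.67, adjusted p under 0.05) were kept as the call rule. Where a count was under 3, it was set to 3 before a fold was taken. Levels per kilobase, GC content and coordinates came from the longest coding transcript of each gene in GENCODE 29 (GRCh38), which gave GC content for 86.6% of the genes compared for Rg3 and 87.1% of those for TAM. The trend was a loess fit (span 0.3) of the log2 fold change on GC content and log2 length over genes with at least 50 counts. Promoters came from RefSeq.

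Named in the text were all 9 members and, from the other lists, each gene called for Rg3 or TAM against control with at least 50 counts in 1 library. ULBP1, RFXAP, CD74 and CIITA, which have fewer, and IRF1, CALR, CANX and PDIA3, which were not called, were named after their values were seen. Some genes of the other lists enter the counts and medians and are not reported here by name. The members, the lists and the tests were chosen with earlier results of these data known. Alternatives were library totals, size factors from DESeq2 1.42.0, filters of 1 and 50 counts, calls by fold without the test, edgeR's exact test at biological coefficients of variation of 0.2 and 0.4 (assumed values), subtraction of the trend, and summed class I HLA rows. The comparison and call steps were tested on reads simulated from the control library, without spread between cultures and without a trend on base composition. TMM scaling, subtraction of the trend and reads shared among HLA genes were not part of that test.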

Additional observations from a re-analysis of the deposited data

How the results depend on the processing

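No paired analysis was possible because the 3 conditions were sequenced once each, and no library could be left out. A filter of 1 or of 50 counts changed no count of called members by over 1.5 times, and NLRC5 has no value at 50 counts. By the fold alone, NLRC5 was added, for 2 higher members with Rg3 and 2 lower members with TAM. With edgeR's exact test and an assumed variation of 0.2, no member was called against control (0 higher with Rg3, 0 lower with TAM), and for TAM against Rg3 1 was higher and 0 lower. With 0.4, 0 were called in each of these. DESeq2 size factors added 1 lower member with Rg3 (HLA-C, -0.59). Library totals, which set the log2 fold changes 0.15 higher with Rg3 and 0.21 lower with TAM, left 1 member higher for TAM against Rg3 and put HLA-E (-0.080), B2M (-0.17), TAP1 (-0.036) and TAP2 (-0.12) below the control with TAM. With the trend in base composition and length subtracted, 1 member was lower with Rg3, 0 with TAM and 1 for TAM against Rg3. The values that then changed sign were HLA-B (0.35), TAP1 (0.24), TAPBP (0.054) and ERAP1 (-0.67) with Rg3, HLA-B (-0.027), HLA-C (-0.012), HLA-E (-0.13) and TAP1 (-0.10) with TAM, and HLA-B (-0.38), HLA-E (-0.063), TAP1 (-0.34) and ERAP1 (0.65) for TAM against Rg3. The spread between cultures was not measured, and whether base composition moved with the cells or with the libraries cannot be told apart.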

Other observations

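The MHC class II pathway presents peptides from outside the cell. Apart from HLA-DMA and HLA-DMB, its listed genes had at most 8 reads in any library. Of 13 class II genes, 2 had enough reads to be compared. HLA-DMA, part of the peptide editor of class II, had 21 reads in the control, 55 with Rg3 and 10 with TAM, and was called higher with Rg3 (log2 fold change 1.06, 95% interval 0.31 to 1.86). HLA-DMB, its partner chain, had 40, 73 and 79 reads and was called higher with TAM (1.19, 0.62 to 1.78). Once the trend in base composition and length was subtracted, these values were 1.25 and 0.88. CIITA, the class II transactivator and a relative of NLRC5, was at 0 in all 3 libraries, where the floor of 3 counts was at most 0.302 CPM. CD74, the invariant chain, had 8, 4 and 3 reads.

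Several class I HLA pseudogenes had reads. HLA-H had 433, 435 and 581 reads, and was called higher with TAM (0.63, with 0.10 remaining after subtraction of the trend). Its counting interval then included no change. HLA-K had 20, 20 and 55 reads and was called higher with TAM (1.67, with 1.16 remaining).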
